A study of Xenopus laevis with 6 samples.

Results

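Histones are the proteins that package DNA into nucleosomes. An H2A–H2B dimer on either face of an H3–H4 tetramer makes the core, and a linker histone, H1, binds the DNA where it enters and leaves. Core histones made for S phase come from many near-identical, intronless genes whose transcripts end in a stem-loop instead of a poly(A) tail. Replacement variants, such as H3.3, H2A.Z and macroH2A, come from ordinary polyadenylated genes and are made throughout the cell cycle. In the frog embryo the egg supplies a large store of histones, and its own linker histone (h1-8, also called B4) gives way to somatic H1 during early development.

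Histone transcripts were examined on Affymetrix arrays of the dorsal part of Xenopus laevis gastrulae. Probe sets entered the group through the gene symbol of the platform annotation alone, dim ones included, and 38 of the 32474 probe sets other than controls carried a histone symbol. The symbols form 3 classes, with 11 probe sets of replication-dependent core histones, 21 of replacement variants and 4 of linker histones. A further 2 probe sets carry 2 symbols each and were kept apart. Together the 36 probe sets with 1 symbol stand for 21 genes, of which 10 have more than 1 probe set. No measured value chose single probe sets, but the family as a whole was chosen by results of the same comparison, in which h2bc11.S was among the strongest increases of the array. All calls and changes of histone probe sets below are therefore a description of these 6 arrays, and a p-value is given for a histone call only where leaving out arrays ends it.

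The control group was injected with a control MO and the depleted group with an anti apcdd1 MO. An MO (morpholino) is a synthetic antisense oligonucleotide that blocks translation or splicing of its target RNA. Both groups received 10 ng in each of the 2 dorsal blastomeres at the 4-cell stage, were kept at 16 °C in dilute salt medium and were cut at stage 10.5, early gastrula, when only the dorsal piece was kept. Each group holds 3 arrays, each from a pool of 10 embryos, so a value is a mean over embryos and over all cells of the piece. Only depleted embryos carried a ventral dye mark, and some of them formed the dorsal lip late, so dye, delay and MO cannot be told apart. The treatment text of the control samples names the apcdd1 MO. Grouping follows their titles, which match the genotype label. No strain and no clutch is named, so the spread between pools may be technical.

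The arrays were alike in brightness, with median signals of 44.4 to 45.7. The probe set of the targeted gene, apcdd1.L, which encodes a membrane inhibitor of Wnt and BMP signals, read 308 ± 7.55 (SD, n = 3) in control arrays and 246 ± 15.5 in depleted ones. An MO need not change the level of its target RNA. Of 11 dorsal and organizer markers 9 were measured, as 13 homeologs, and their summed signal was 11389 to 13295 in control and 9993 to 10533 in depleted arrays. The 8 ventral and lateral markers, measured as 11 homeologs, summed to 3581 to 3904 and 4329 to 4596. Transcripts of egg and germ plasm, 6 of 6 measured, summed to 3344 to 3413 and 2166 to 2917. The egg's h1-8, also listed, was left out of this sum as a member of the histone group. In the fit described below, 2 of these 6 were called lower and 0 higher, against 3.61% and 3% of all tested probe sets. Of 11 dorsal and organizer homeologs tested in it, 3 were called lower and 0 higher. Of 9 tested ventral and lateral ones, 3 were called higher and 0 lower. No marker was listed at 0, and the lowest signal was 7.76. The ratio of the 3' to the 5' gapdh control probe set was 1.75 to 1.81 in control and 1.82 to 1.95 in depleted arrays. These 4 measures separate the groups without overlap, and their part in the histone values was not tested. In bulk pieces, fewer cells of a type and less RNA per cell cannot be told apart.

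In apcdd1-depleted pieces, signals were higher on probe sets of 3 genes classed by symbol as replication-dependent core histones, h2bc11.S, h2ac14.L and h2ac7.L. Those of the variant h2ax.S and of the linker histone h1-6.L were also higher, but the call of h1-6.L depended on single arrays. The increases ran from 1.61-fold to 3.19-fold. The other tested probe sets of the group, among them those of H3, H3.3 and H2A.Z, had log2 changes between -0.14 and 0.34, and none of them passed the threshold. After probe sets under a signal of 22.3 were set aside as dim, 32 histone probe sets were tested. Of these, 7 rose, 0 fell and 25 did not pass limma's adjusted p of 0.05 in a fit across all probe sets. In that fit 3% of the 19484 tested probe sets were called higher, 3.61% lower and 6.62% in either direction. The median log2 change was 0.00 over the histone probe sets and 0.00 over all probe sets tested. The histone values thus fall into a few large increases and many small changes of either sign, as the plot of changes by class shows.

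**Figure D1:**
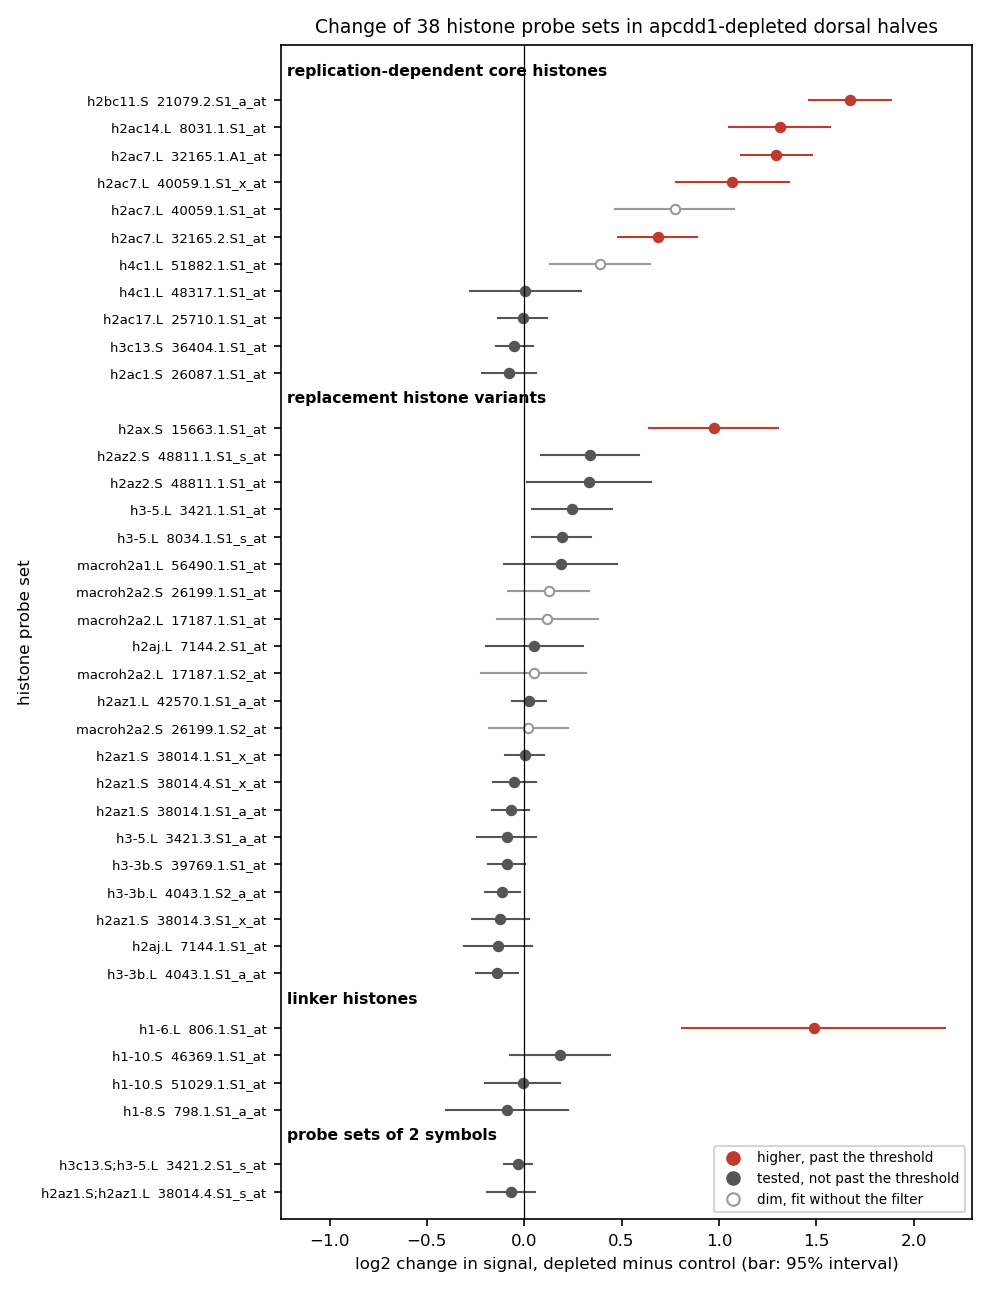
Log2 change in signal (x axis) of each of the 38 histone probe sets (y axis, by class), depleted minus control, with bars for the 95% interval of the fit. Red points passed the threshold, grey points did not, and open points are dim probe sets taken from the fit without the filter. The 7 red points lie between 0.69 and 1.67, and each of the other filled points lies between -0.14 and 0.34.

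Among the replication-dependent core histones, 9 of 11 probe sets were tested, of which 5 rose, 0 fell and 4 did not pass. The median log2 change over these probe sets was 0.69, but several of them belong to the same gene, h2ac7.L. By gene, h2bc11.S, h2ac14.L and h2ac7.L rose. The tested probe sets of h2ac1.S, h2ac17.L, h3c13.S and h4c1.L had log2 changes of -0.08, -0.01, -0.05 and 0.01. The median therefore does not describe a shift of the class as a whole. For each of these genes, membership in the class rests on the symbol and was not checked otherwise. In 5 of the 9 the depleted arrays all lay above the control arrays and in 0 all below, while 11.9% and 12.8% of all tested probe sets did so. Without the filter, all 11 could be fitted, and 6 were called higher, against 1.73% of all probe sets in that fit.

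h2bc11.S encodes an H2B, the partner of H2A in the dimer. Its probe set read 1104, 1389 and 1434 in the control arrays and 4342, 3998 and 4109 in the depleted ones. The lowest depleted array thus stood far above the highest control array. The means were 1309 ± 179 and 4149 ± 176 (SD, n = 3), a 3.19-fold increase with a log2 change of 1.67 ± 0.09 (SE). The probe set, Xl2.21079.2.S1_a_at, is the one H2B probe set of the group, so no second H2B gene could be set beside it.

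h2ac14.L, an H2A gene, read 85.6, 92.4 and 104 in control and 264, 237 and 201 in depleted arrays. Its groups were well apart, and the log2 change was 1.31 ± 0.12 (SE), a 2.48-fold increase.

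h2ac7.L, another H2A gene, has 4 probe sets, and the depleted arrays lay above the control arrays on each of them. On Xl2.32165.1.A1_at the control arrays read 120, 139 and 141 and the depleted arrays 326, 318 and 336, a 2.45-fold increase (log2 change 1.30 ± 0.08 SE). On Xl2.32165.2.S1_at the signals were 186, 186 and 224 against 318, 303 and 334, a 1.61-fold increase (log2 change 0.69 ± 0.09). The size of the increase therefore differed between probe sets of the same gene. Xl2.40059.1.S1_x_at went from 23.7 ± 1.39 to 50.0 ± 8.43 (SD, n = 3), a log2 change of 1.07 ± 0.13 (SE), but its control signals sit beside the filter's 22.3, so that background may make up much of them. The suffix _x marks probes that can also bind other transcripts. The fourth probe set, Xl2.40059.1.S1_at, has the same name up to its suffix and was dim, so the 4 may not be independent readings.

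Other H2A genes gave another picture. h2ac17.L read 4540, 3935 and 4167 in control and 4122, 4259 and 4173 in depleted arrays, with full overlap, and its log2 change of -0.01 had a 95% interval of -0.13 to 0.12. h2ac1.S read 2001, 1866 and 1980 against 1924, 1706 and 1915, also overlapping, with an interval of -0.22 to 0.06. Both intervals lie below the lowest bound among the called histone probe sets, 0.48. Those probe sets were picked by the same fit, so this gap is no test of a difference between genes.

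The core histones H3 and H4, which form the tetramer, were represented by 1 gene each. h3c13.S, an H3 gene, was placed among the core histones by its symbol alone. Another probe set carries its symbol together with that of h3-5.L, a gene of the H3.3 kind by symbol. A replication-dependent H3 may therefore not have been measured. h3c13.S had signals of 7945, 7602 and 7298 in control and 7219, 7462 and 7371 in depleted arrays. The groups overlapped, and the interval of the log2 change was -0.15 to 0.04. h4c1.L, the H4 gene, was near the filter's signal on 1 probe set, with 26.5 ± 3.65 and 26.5 ± 2.39 (SD, n = 3), and under it on the other. The dimmer one, Xl2.51882.1.S1_at, was at 19.0 ± 2.35 and 24.8 ± 1.52 (SD, n = 3), with the depleted arrays all above the control arrays. It did not pass in the fit without the filter, where its log2 change of 0.39 had an interval of 0.13 to 0.65. H4 is thus known here only at signals not shown to be above background.

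**Figure D2:**
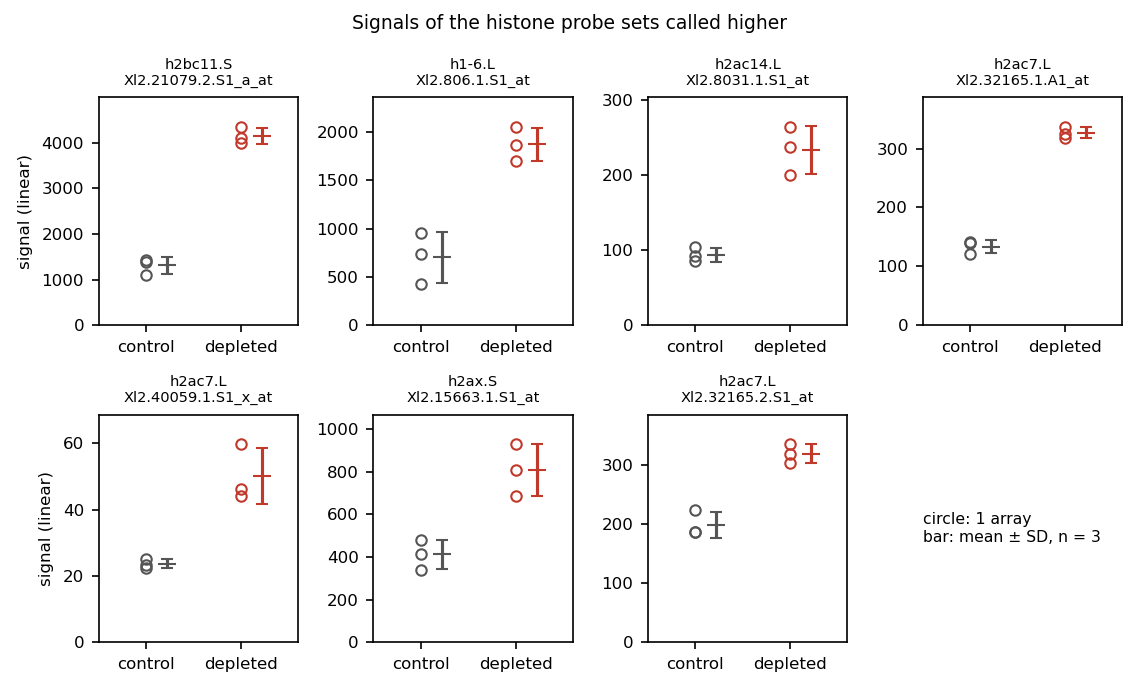
Signal on a linear scale (y axis) of the 7 histone probe sets called higher in control and depleted arrays (x axis). Circles are single arrays and bars the mean ± SD (n = 3). In every panel the 3 depleted arrays lie above the 3 control arrays, and for h1-6.L the control arrays spread from 423 to 951.

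Replacement variants hold 21 probe sets, of which 17 were tested. Of these, 1 rose, 0 fell and 16 did not pass, and the median log2 change was 0.00. The share called, 5.88%, is near the 6.62% of all tested probe sets. The depleted arrays all lay above the control arrays in 3 of the 17 and all below in 5. Over all tested probe sets the shares were 11.9% and 12.8%. The 5 include both probe sets of h3-3b.L, so they do not stand for as many genes.

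The probe set that rose is that of h2ax.S, which encodes the H2A variant that is phosphorylated at DNA breaks. Among vertebrate variants it is unusual in also being made with replication, and the class was assigned by symbol. It read 342, 414 and 481 in control and 929, 809 and 686 in depleted arrays. The arrays did not overlap, and the increase was 1.96-fold (log2 change 0.97 ± 0.14 SE). A further pair of probe sets under the older symbol h2afx lies outside the naming rule. Their gene number is called h2ax.lS in the RefSeq gene table. They went from 77.3 ± 14.1 to 132 ± 7.38 and from 84.7 ± 9.32 to 132 ± 16.7 (SD, n = 3), with log2 changes of 0.78 ± 0.12 and 0.64 ± 0.12 (SE), and both were called higher in limma. The call of the second ended without control array 2 (adjusted p = 0.058).

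H2A.Z, a variant found at promoters, is encoded by h2az1 and h2az2. The brightest probe set with 1 symbol, that of h2az1.L, read 6990, 6892 and 6979 in control and 7096, 7271 and 6873 in depleted arrays. The groups overlapped, and the interval of the log2 change was -0.06 to 0.11. The 4 probe sets of h2az1.S had log2 changes from -0.12 to 0.00, and none passed. The brightest of them was at 6346 ± 280 and 6355 ± 133 (SD, n = 3), with overlapping groups. On both probe sets of h2az2.S the mean change was upward, with log2 changes of 0.33 ± 0.14 and 0.34 ± 0.11 (SE), and neither passed. On the brighter of these the control arrays read 218, 209 and 230 and the depleted arrays 334, 257 and 247, so depleted array 1 stood apart from the other depleted arrays.

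H3.3, the variant laid down outside replication, is encoded by h3-3b in both homeologs. Xl2.4043.1.S2_a_at of h3-3b.L read 6071, 6379 and 6144 in control and 5632, 5831 and 5739 in depleted arrays, with the depleted arrays all lower. Its log2 change was -0.11 ± 0.04 (SE), and its other probe set gave -0.14 ± 0.05. The probe set of h3-3b.S read 5069, 4926 and 4957 against 4522, 4771 and 4758, again with the depleted arrays lower, for a log2 change of -0.09 ± 0.04. None of the 3 passed, and their 95% intervals lay between -0.25 and 0.00. The gene h3-5.L, also of the H3.3 kind by symbol, had 3 probe sets that disagreed in sign, with log2 changes of 0.25 ± 0.09, 0.19 ± 0.07 and -0.09 ± 0.07 (SE). None passed, but the first 2 became calls without control array 1, at 0.36 and 0.26.

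h2aj.L had log2 changes of -0.14 ± 0.08 (SE) on its brighter probe set, at 135 ± 5.21 in control arrays (SD, n = 3), and 0.05 ± 0.11 on the other, which lay near the filter. The remaining variants were dim or near the filter. macroh2a1.L, a gene of the large variant with an extra macrodomain, read 28.0 ± 4.36 and 31.7 ± 1.69 (SD, n = 3). The 4 probe sets of macroh2a2.L and macroh2a2.S were all left out as dim, with array signals between 5.14 and 17.6. In the fit without the filter their log2 changes ran from 0.02 to 0.13, and none passed.

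Of the 4 linker histone probe sets, all tested, 1 rose, 0 fell and 3 did not pass. Over all tested probe sets 3% were called higher and 3.61% lower. A single call among 4 says little about the class. h1-6.L, a linker histone gene whose symbol is that of the testis H1 in mammals, read 423, 737 and 951 in control and 2053, 1865 and 1704 in depleted arrays. The groups did not overlap, although the highest control array was 2.25 times the lowest, the widest control spread of any histone probe set. The log2 change was 1.49 ± 0.28 (SE), a 2.80-fold increase. The call depended on single arrays. limma's adjusted p was 0.029 with all arrays, and it was 0.080 without control array 2 and 0.11, 0.092 and 0.078 without depleted arrays 1, 2 and 3.

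h1-8.S, the egg's linker histone, read 3571, 3012 and 2388 in control and 2762, 2674 and 2893 in depleted arrays. The depleted arrays all lay within the control range, and the log2 change of -0.09 had an interval of -0.40 to 0.22. Among the control arrays the order of h1-8.S was the opposite of that of h1-6.L, with array 1 highest in the first and lowest in the second. In the depleted arrays the orders were not opposite: h1-8.S was lowest in array 2, but h1-6.L was highest in array 1. h1-10.S, a linker histone gene of the H1X kind, had overlapping groups on both probe sets, with log2 changes of 0.18 ± 0.11 and -0.01 ± 0.09 (SE).

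**Figure D3:**
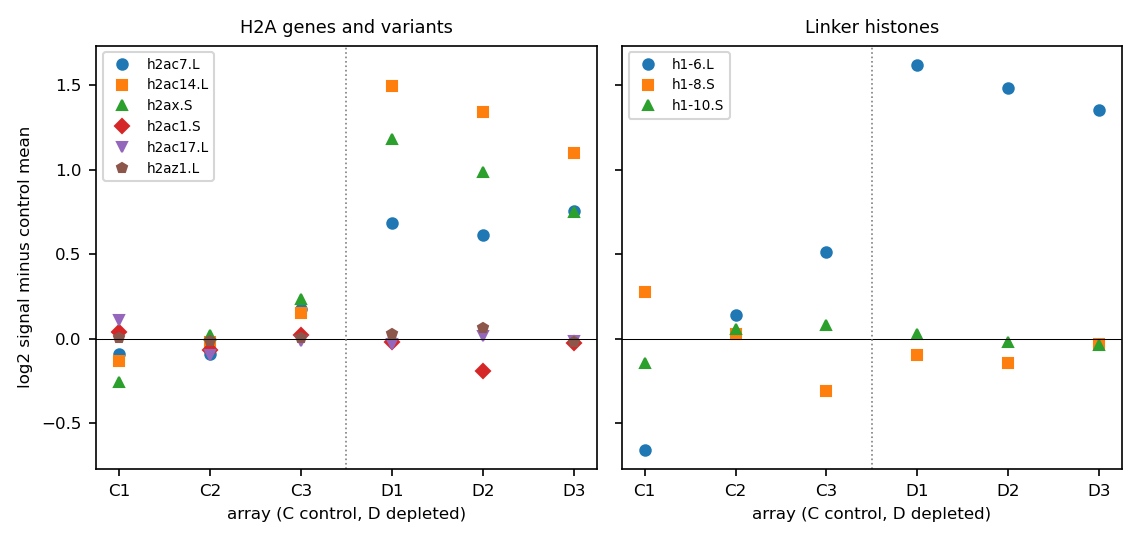
Log2 signal minus the mean of the control arrays (y axis) in each array (x axis, C control and D depleted), for the brightest probe set with 1 symbol of 6 H2A genes and variants (left) and 3 linker histone genes (right). h2ac14.L, h2ac7.L, h2ax.S and h1-6.L stand above 0 in all depleted arrays, while h2ac1.S, h2ac17.L and h2az1.L stay near 0. h1-6.L and h1-8.S spread widely among the control arrays.

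Within the groups, control array 1 was the lowest control array in 6 of the 7 called probe sets, and depleted array 1 was the highest depleted array in 4 of them. In the other 3, all of h2ac7.L, depleted array 3 was the highest. No such count over all tested probe sets is given beside these, so they cannot be read as a trait of histones. In none of the 7 did the groups overlap, while the depleted arrays all lay above in 11.9% of all tested probe sets. The 7 were picked by a fit to the same arrays, so their lack of overlap adds no support. Of the 32 histone probe sets tested, 5 were called and at least 2-fold higher, as were 0.416% of all probe sets tested. Among called increases alone, 5 of 7 histone probe sets were at least 2-fold, as were 81 of 585 among all tested probe sets, these 5 included. The family was chosen because h2bc11.S was among the strongest increases of this comparison, so these shares are no test of it. The 5 include Xl2.32165.1.A1_at and Xl2.40059.1.S1_x_at, both of h2ac7.L, so they do not stand for as many genes.

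Several features bear on how far a probe set speaks for 1 gene. Of the 38 probe sets, 4 carry the suffix _s and 4 the suffix _x, which mark probes shared between transcripts, and 7 carry _a, for probes that match several transcripts of 1 gene. Core histone genes are so alike that copies outside the annotation may bind the same probes, so h2bc11.S, h2ac7.L and h2ac14.L are best read as probe sets of a family. The probe set with the symbols h3c13.S and h3-5.L together read 12125 ± 79.5 and 11872 ± 118 (SD, n = 3), and that of both h2az1 homeologs 6114 ± 372 and 5823 ± 273. For h2ac7.L, h2ac14.L and h3-5.L the ending .L of the symbol goes with an S chromosome in the RefSeq table of assembly Xenopus_laevis_v10.1. For these 3, L and S do not tell the homeologs apart. All 21 symbols were found in that table by gene number. In its gene order, counting 6 genes on each side, 3 members had a named histone gene nearby and 18 did not. h2ac14.L lies next to h3c8.S, h2ax.S next to h2ax.2.S, and h1-10.S has 1 within that distance. h2bc11.S and h2ax.lS lie on the same chromosome with 11 genes between them. All 12 neighbours of h2ac7.L and of h4c1.L, 11 of h1-6.L and 9 of h2bc11.S carry placeholder names, so histone genes among them cannot be counted.

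Labelling bears on the class comparison as well. Per the labels, RNA was labelled by the maker's standard protocol, which in general starts from the poly(A) tail. Stem-loop histone transcripts without a tail would then be labelled poorly, whereas tailed ones are labelled as other messages are. More transcript and a larger tailed share cannot be told apart on these arrays.

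Genes that make, process and carry histones were examined beside the members, from a list of 55 entries of which 39 had a probe set, giving 51 tested homeologs. Of these, 0 rose, 3 fell and 48 did not pass, and the median log2 change was -0.03. The share called, 5.88%, is near the 6.62% of all tested probe sets. The 3 that fell stand among the 12 homeologs of 3' end processing and decay. Over all tested probe sets, 3.61% were called lower. The list was chosen with earlier results of these data known, and its roles were not compared by a test. slbp.S encodes the stem-loop binding protein, which holds the end of replication-dependent histone transcripts through processing, translation and decay. It read 753, 795 and 774 in control and 453, 524 and 494 in depleted arrays, with no overlap. Its log2 change was -0.66 ± 0.07 (SE; limma adjusted p = 4.8e-04). The homeolog slbp.L went from 4736 ± 145 to 4229 ± 133 (SD, n = 3), also without overlap, with a log2 change of -0.16 ± 0.05 (SE) that did not pass (limma adjusted p = 0.066). sympk.S, the gene of symplekin, a scaffold of the cleavage complex, was lower at 194 ± 5.11 against 267 ± 11.4 (SD, n = 3), with an adjusted p of 0.0038 in limma. upf1.S, the gene of an RNA helicase of histone mRNA decay, was lower at 152 ± 5.82 against 195 ± 15.5, with an adjusted p of 0.031. Its call ended without control array 2 or 3 and without any single depleted array (adjusted p 0.064 to 0.13), and with the replicate number as a block (0.059), while slbp.S and sympk.S stayed called in all alternatives run.

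Transcription factors of histone genes and histone chaperones showed 0 calls among 8 and 31 tested homeologs. Over all tested probe sets 6.62% were called, so 0 among so few does not set these roles apart. npat.S, the gene of a coactivator of histone gene clusters, had a log2 change of -0.12 ± 0.07 (SE). Among the chaperones, nasp.L and nasp.S, which carry H3–H4 and linker histones, had log2 changes of 0.10 ± 0.14 and 0.08 ± 0.08. npm2.L and npm2.S encode nucleoplasmin, the egg's store for H2A–H2B, and had changes of -0.02 ± 0.06 and -0.02 ± 0.07. The CAF-1 subunit gene chaf1a.L had -0.06 ± 0.07, and hira.S, of the H3.3 pathway, -0.18 ± 0.07. cenpa.L, the gene of the centromeric H3 variant, was at 1516 ± 14.2 and 1482 ± 109 (SD, n = 3).

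DNA replication, to which core histone supply is coupled, was covered by 47 tested homeologs. Of these 4 rose, 4 fell and 39 did not pass, with a median log2 change of -0.02. Without control array 2, 2 rose and 2 fell. With all arrays, the share called in each direction was above that of all tested probe sets, 3% higher and 3.61% lower. The share called in either direction was likewise above their 6.62%, unlike in the supply list. This list too was chosen with earlier results of these data known, so the comparison is no test. pcna.S, the gene of the sliding clamp of replication forks, read 684, 658 and 743 in control and 1031, 949 and 905 in depleted arrays, with no overlap (log2 change 0.47 ± 0.07 SE, limma adjusted p = 0.0042). pcna.L rose by 0.37 ± 0.07, gins3.L, of the replicative helicase, by 0.35 ± 0.08, and orc1.L, of the origin recognition complex, by 0.41 ± 0.10 (SE). The cyclin E2 genes ccne2.S and ccne2.L fell by 0.86 and 0.80 on the log2 scale, the DNA polymerase alpha gene pola1.S by 0.52 and the clamp loader gene rfc4.L by 0.38. Another tested probe set of pola1.S did not pass. Conversely, rrm1.L did not pass on its brightest probe set but was called on another. Replication genes thus moved in both directions, and mcm2.L, which is also a histone chaperone, had -0.23 ± 0.06 (limma adjusted p = 0.066).

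**Figure D4:**
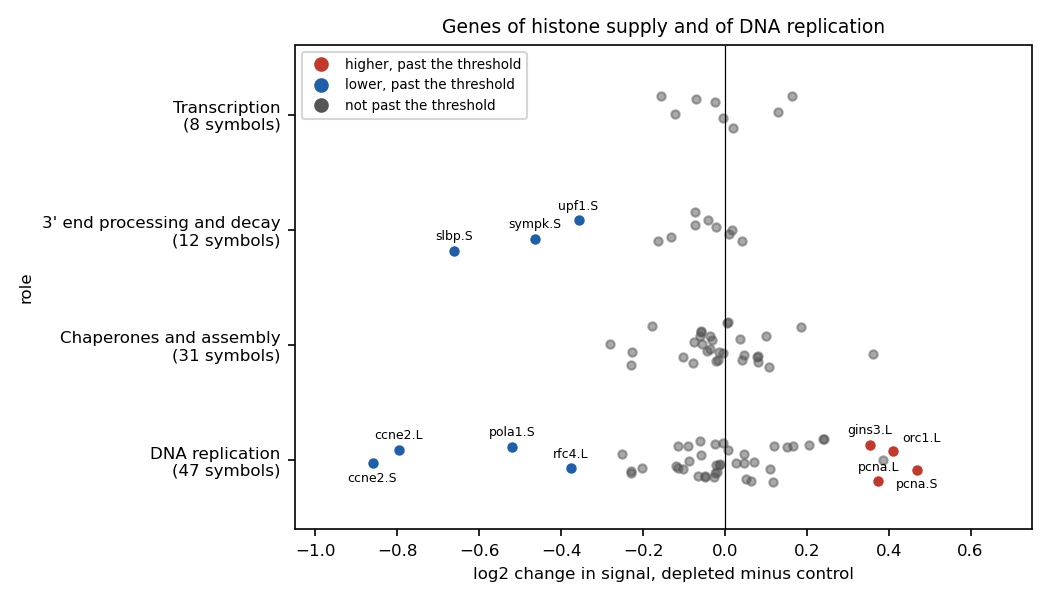
Log2 change in signal, depleted minus control (x axis), of each tested gene of histone supply and DNA replication by role (y axis, points spread vertically for legibility). Coloured points passed the threshold and are named. The 3 calls of histone supply, slbp.S, sympk.S and upf1.S, lie between -0.66 and -0.36, and those of replication lie on both sides of 0.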

How the data were processed

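Signals of 6 Affymetrix arrays, 3 control MO and 3 apcdd1 MO, came from the deposited table of 32634 probe sets. The authors' values are signal intensities on a linear scale. The submitters' processing notes name MAS5, with no version. Scaling target and detection calls are not given in the sources used here. Symbols came from the platform annotation, and gene numbers were looked up in RefSeq's gene table. With 160 control probe sets set apart, signals were floored at 1 (0 values moved) and put on the log2 scale. Probe sets whose log2 mean over the 6 arrays lay under the 40th percentile (4.48) were set aside as dim, leaving 19484. The groups were tested two-sided in limma 3.58.1 (R 4.3.3; lmFit, then eBayes with its trend and robust options). Benjamini-Hochberg adjustment covered every probe set tested, at a threshold of 0.05. A fold change is 2 to the difference of mean log2 values. Precision is limited by the number of arrays: with 3 per group, permutation p-values stop at 0.1. The fit was tested on simulated data with independent noise and planted changes. That simulation held no array or clutch effects and cannot show how the fit handles them.

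Members and gene lists were chosen with earlier results of these data known. Named are all called histone probe sets, the brightest of each class, those changed at least 2-fold, other probe sets of the same genes and, in the lists, called genes. List genes are given by their brightest probe set. Alternatives were between-array scaling (quantile normalization, or centring on the median), a pseudocount of 16, no filter or a stricter one (60th percentile), a block on the replicate number, plain eBayes, each array left out, shared probe sets left out, and list genes by the mean over their probe sets. No sequences were used.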

Additional observations from a re-analysis of the deposited data

Results flagged for a closer look

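One dim probe set of h2ac7.L, Xl2.40059.1.S1_at, carried a signal outside the tested set. It read 12.7, 14.3 and 13.7 in control and 18.8, 24.5 and 27.0 in depleted arrays, with no overlap. In limma's fit without the filter its log2 change was 0.77, past the threshold, and its control signals lie under the filter's 22.3.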

How the results depend on the processing

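All 7 called histone probe sets stayed higher in every alternative that tested them, and 6 of them, all but h1-6.L, stayed called in each, 1 of these, h2ac7.L Xl2.40059.1.S1_x_at, being left out at the 60th percentile. No histone probe set was called lower in any. With an array left out, calls over all probe sets ran from 305 to 610 higher and 364 to 820 lower, the lowest without control array 2 and the next without depleted array 3 (322 and 417). Calls ran from 1 to 3 in the variants (3 without control array 1), from 0 to 1 in the linker histones (0 without control array 2 or any depleted array), and from 2 to 3 higher and 2 to 6 lower in the replication list (2 higher without control array 2, depleted array 1 or depleted array 3, 2 lower without control array 2). Without shared probe sets the core median was 0.35 instead of 0.69, from 8 probe sets. Nothing in the labels says that same-numbered arrays share a clutch. Their deviations from the group means correlated at 0.05, 0.02 and -0.27, and those of differently numbered arrays at -0.24 to 0.21. With 3 arrays per group these values cannot show whether the arrays are paired. With the replicate number as a block, calls of linker histones went to 0, as h1-6.L had an adjusted p of 0.13 in limma, and no other histone call ended. In the supply list 2 to 4 genes were called lower. The cause was not tested. Signals at or under the filter limit H4 and macroH2A.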
